A study of Mus musculus with 8 samples.

Results

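Small hematopoietic stem cells (HSCs) were compared with HSCs not separated by size, using 4 of the 8 libraries given here: 2 labelled Small, numbered 1 and 2, and 2 labelled All, numbered 1 and 2. The members are the samples whose titles carry these words, and libraries of the same number were also set against each other. All groups were HSCs of C57BL/6J mice, prepared from flushed long bones by depleting lineage-positive cells and antibody staining for CD117, Sca-1, CD48 and CD150. The Small gate took the smallest 10% of the HSC preparation by light scatter, whereas All cells were sorted without a size gate. The Medium gate, around the mean size, and the Large gate, the largest 10%, supply 2 libraries each. Their levels appear below for reference. They also enter the fit behind the p-values, which covers all 8 libraries unless stated otherwise. Every library was made from 10000 cells in G0/1 phase, so that cells in S, G2 and M phase were to be left out of all groups. The labels give no treatment, age or sex, and they do not say whether the 2 libraries of a group came from separate animals. The p-values below therefore measure only the spread between the libraries in the fit, which may be technical.

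HSCs are the rare marrow cells that renew themselves and supply all blood lineages through multipotent progenitors. Most of them rest in G0, make less protein than the progenitors that descend from them. Enlargement of HSCs has been linked to loss of their capacity to rebuild blood, and the comparison asks which transcripts set the smallest HSCs apart from the whole preparation, of which they are a part. Levels are given in CPM, read counts scaled by the library total and by a further factor per library from the TMM method. They are relative levels, not exact shares of a library's RNA. Over the 16066 genes tested they summed to 1028160 and 976123 in Small and to 1024820 and 945536 in All. The highest such sum was 1079890, in Large 1. RNA per cell was not measured, and in such bulk samples fewer cells of a type and less RNA per cell cannot be told apart.

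Total counts ran from 13698362 to 16838448 in the 4 libraries, and 16066 genes passed the filter on low counts. All 2 stood apart: on the first principal component of the 8 libraries, which held 39.5% of the variance, it lay at 106.3, with Small 2 at 56.6, All 1 at -43.2 and Small 1 at -64.4. Small 1 correlated with All 1 at r = 0.952 over log2 CPM, Small 2 with All 2 at 0.921, Small 1 with Small 2 at 0.912 and All 1 with All 2 at 0.891, across genes, which are not independent replicates. Libraries of one number were thus closer than libraries of one gate, and each result below is given within number 1 and number 2 as well. Of the pairs that share neither, Small 2 with All 1 stood at 0.9185, above both pairs of one gate, and Small 1 with All 2 at 0.8685.

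The transcripts of the 4 sort antigens were present in every library. Kit, the receptor CD117, was at 851 and 1195 CPM in Small and at 654 and 1016 CPM in All. Ly6a, which encodes Sca-1, was at 45.7 and 288 CPM in Small and at 57.5 and 306 CPM in All, so that the number mattered more than the gate. Slamf1, which encodes CD150, was at 10.8 and 8.70 CPM in Small and 15.9 and 22.6 CPM in All. Cd48, whose product marks progenitors rather than HSCs, was at 136 and 62.6 CPM in Small and at 67.3 and 12.0 CPM in All. Slamf1 was lower in both Small libraries than in both All libraries, and Cd48 was higher in Small within each number while the groups overlapped. None of the 4 differed by edgeR's quasi-likelihood test (unadjusted p from 0.107 for Slamf1 to 0.926 for Ly6a, n = 2 and 2). With the replicate block, Kit (unadjusted p = 0.0236) and Cd48 (unadjusted p = 0.0345) were below 0.05 in edgeR, both higher in Small, and neither passed after adjustment.

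No gene of 16066 passed edgeR's quasi-likelihood test at a Benjamini-Hochberg adjusted p of 0.05, and every adjusted p was 1. An unadjusted p under 0.05 was reached by 637 genes (3.96% of those tested), of which 265 were higher in Small (1.65%) and 372 lower (2.32%). With the replicate number as a block, edgeR still called 0 genes (smallest adjusted p = 0.275), but 1850 reached an unadjusted p under 0.05, 957 higher (5.96%) and 893 lower (5.56%). Other tools called more: DESeq2 called 28 genes without the block and 374 with it, whereas limma-voom and limma-trend on log2(TPM + 1), where TPM is a level scaled by transcript length and library total, called 0. Both Small libraries lay above both All libraries for 1920 genes (12.0%) and below both for 2375 (14.8%). Small was higher within both numbers for 4285 genes (26.7%) and lower within both for 5025 (31.3%), and 39.8% of genes moved in opposite directions in the 2 numbers. An exact permutation test of a single value with 2 libraries against 2 cannot give a p below 0.33. The gene groups below are therefore described by counts and medians, beside the median of all genes tested, a log2 difference of -0.04.

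Ribosomal protein genes, which encode the structural proteins of the cytoplasmic ribosome, were lower in Small HSCs as a group. Of 79 measured, 78 had a fitted log2 difference below 0, 50 were lower in both Small libraries than in both All libraries (14.8% of all genes) and 70 were lower within both numbers (31.3% of all genes). The median log2 difference was -0.25, with -0.16 within number 1 and -0.34 within number 2. The test found 2 of them lower at an unadjusted p under 0.05 (2.32% of all genes) and 0 after adjustment. With the replicate block 32 were lower at an unadjusted p under 0.05 (5.56% of all genes). Compared with All 1 alone, leaving out the library that stood apart, 70 of 79 were lower in both Small libraries (32.9% of all genes), and compared with All 2 alone 53 were (36.3% of all genes). Leaving out Small 2 moved the median to -0.12.

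The summed level of the 79 genes was 22882 and 20111 CPM in Small against 25286 and 24865 CPM in All, so that both Small libraries were the lower ones. The Medium libraries held 30628 and 30493 CPM and the Large libraries 29804 and 26572 CPM, above both All libraries. For 71 of the 79 genes, both Small libraries were below all 4 Medium and Large libraries, against 7.88% of all genes tested. The All mean fell inside the range of the 3 gate means for 77 of 79, compared with 50.6% of all genes. Small was thus at the low end of the size series for these genes, and All between Small and Medium.

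The genes of this group with the smallest p were Rps20, a protein of the small subunit (chr4:3831334-3835665, minus strand, GRCm38), and Rplp1, an acidic protein of the large subunit's stalk (chr9:61913284-61914542, minus strand). Rps20 was at 151 and 152 CPM in Small (152 ± 0.915, SD, n = 2) and at 187 and 218 CPM in All (202 ± 21.7, SD, n = 2), a log2 difference of -0.41 (SE 0.17, unadjusted p = 0.0481, adjusted p = 1, edgeR). Rplp1 was at 197 and 163 CPM in Small and at 243 and 251 CPM in All, a log2 difference of -0.46 (SE 0.19, unadjusted p = 0.0485, adjusted p = 1, edgeR). In both genes the groups did not overlap. The most abundant members differed less. Rplp0, another stalk protein, was at 1114 and 929.6 CPM in Small and at 1126 and 1033 CPM in All, and Rpl3, near the catalytic centre of the large subunit, was at 998 and 1207 CPM in Small and at 1060.4 and 1251 CPM in All. In these 2 genes the groups overlapped. Reads of ribosomal protein genes can be shared with processed pseudogenes, and how the estimation split them is not known here.

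Other gene groups of protein production did not share the difference in their medians. The 32 ribosome biogenesis genes had a median log2 difference of 0.00 (4 above and 4 below without overlap), the 60 genes of the mitochondrial ribosome one of -0.01 (2 above and 1 below), and the 20 tRNA synthetases one of 0.14 (5 above and 1 below). Over all genes, 12.0% were above and 14.8% below. The 3 most abundant ribosome biogenesis genes, Ncl, Npm1 and Nop56, were nevertheless lower in Small within both numbers. Ncl was at 522 and 451 CPM in Small and at 694 and 602 CPM in All, without overlap. The 32 genes summed to 5161 and 4066 CPM in Small and to 5383 and 4481 CPM in All, and 16 had a difference above 0 and 16 below. Transcripts of ribosomal proteins are short, with a median length of 914 bases against 2796 for all genes tested, and the shortest decile of all genes also had a median log2 difference of -0.16. With the trends in transcript GC content and length removed, the median of the 79 genes was -0.21.

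**Figure D1:**
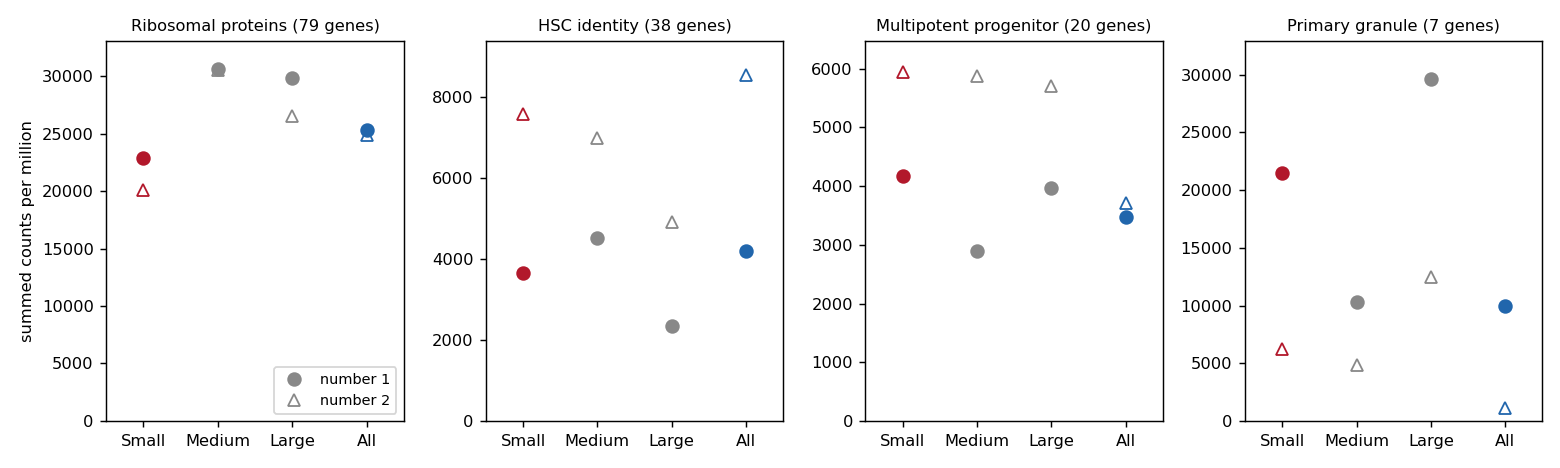
Summed CPM (y axes, from 0) of 4 gene lists in the 8 libraries by gate (x axes). Circles are number 1 and open triangles number 2, Small is red, All is blue, and Medium and Large are grey. For ribosomal proteins both Small libraries, at 22882 and 20111 CPM, lie below the 6 others. For the other 3 lists the 2 numbers lie far apart within most gates.

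The 12 genes with the smallest p among those lower in Small (mean of at least 5 CPM, groups not overlapping) were Rock2, Igkv4-55, Rif1, Prkdc, Rb1cc1, Tpr, Atrx, Usp34, Rock1, Thoc2, Cntln and Kmt2e. None passed the adjusted test in edgeR (adjusted p = 1), and the unadjusted p ran from 0.000562 to 0.00351. The plot of CPM by library for the genes of smallest p shows the gap between the groups in each of them.

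Rock2, a kinase that drives contraction of the actin cytoskeleton (chr12:16894895-16987823, plus strand), was at 13.6 and 14.4 CPM in Small (14.0 ± 0.572, SD, n = 2) and at 39.9 and 50.1 CPM in All (45.0 ± 7.18, SD, n = 2). The 2 Small libraries were nearly equal, and the lower All library was at 39.9 CPM. The log2 difference was -1.68 (SE 0.28, unadjusted p = 0.000562, edgeR), with -1.55 within number 1 and -1.79 within number 2. Its paralog Rock1 was at 9.78 and 10.3 CPM in Small and at 22.3 and 38.8 CPM in All (log2 difference -1.61, SE 0.35, unadjusted p = 0.00270, edgeR). Both kinases were thus lower in each Small library than in each All library.

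Several of the 12 act on chromatin or DNA breaks. Rif1, which sets replication timing and steers the repair of double-strand breaks (chr2:52072832-52122383, plus strand), was at 15.1 and 18.1 CPM in Small and at 63.6 and 49.9 CPM in All, a log2 difference of -1.77 (SE 0.35, unadjusted p = 0.00158, edgeR). Prkdc, the catalytic subunit of DNA-dependent protein kinase (chr16:15637866-15842235, plus strand), was at 14.8 and 18.7 CPM in Small and at 40.1 and 43.3 CPM in All, a log2 difference of -1.31 (SE 0.27, unadjusted p = 0.00166, edgeR). Atrx, a chromatin remodeller that helps deposit histone H3.3, was at 25.6 and 21.0 CPM in Small and at 53.3 and 112 CPM in All. In all 3 the lower All library was above the higher Small library, and for Atrx the 2 All libraries were themselves far apart. Kmt2e, of the KMT2 methyltransferase family, was at 38.8 and 44.4 CPM in Small and at 70.5 and 85.5 CPM in All.

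The others serve the nuclear pore, RNA export, autophagy, ubiquitin removal and the centriole. Tpr, the filament protein of the pore's nuclear basket, was at 15.1 and 17.9 CPM in Small and at 46.5 and 77.0 CPM in All. Thoc2, of the complex that couples transcription to mRNA export, was at 17.3 and 18.3 CPM in Small and at 38.8 and 66.0 CPM in All. Rb1cc1, also called FIP200 and needed to start autophagy, was at 15.9 and 11.5 CPM in Small and at 39.2 and 33.5 CPM in All. In these 3 the All libraries were all above the Small ones, by a wider gap in All 2 for Tpr and Thoc2. Usp34, a deubiquitinase, was at 9.32 and 7.63 CPM in Small and at 27.4 and 25.9 CPM in All, and Cntln, a centriolar linker protein, was at 3.69 and 3.57 CPM in Small and at 16.2 and 17.5 CPM in All. Igkv4-55, an immunoglobulin kappa variable segment, had 0 counts in both Small libraries and 53.8 and 8.49 CPM in All. Against a floor of 3 counts per library it was at least 153-fold lower in Small, but its segments are near-identical to others and its level in Medium and Large was only 0.0714 to 0.677 CPM.

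As a description, all 4 Medium and Large libraries were above both Small libraries for 12 of 12, against 7.88% of all genes tested. The genes had been chosen for low values in Small, and all 8 libraries entered the fit that ranked them, so this count is no independent support. Rock2 was at 38.9 and 31.4 CPM in Medium and at 32.1 and 24.9 CPM in Large, and Rif1 was at 75.6 and 41.8 CPM in Medium and at 56.6 and 43.0 CPM in Large. For Rock2 these levels lay between Small and All, and for Rif1 they spanned the levels of All.

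**Figure D2:**
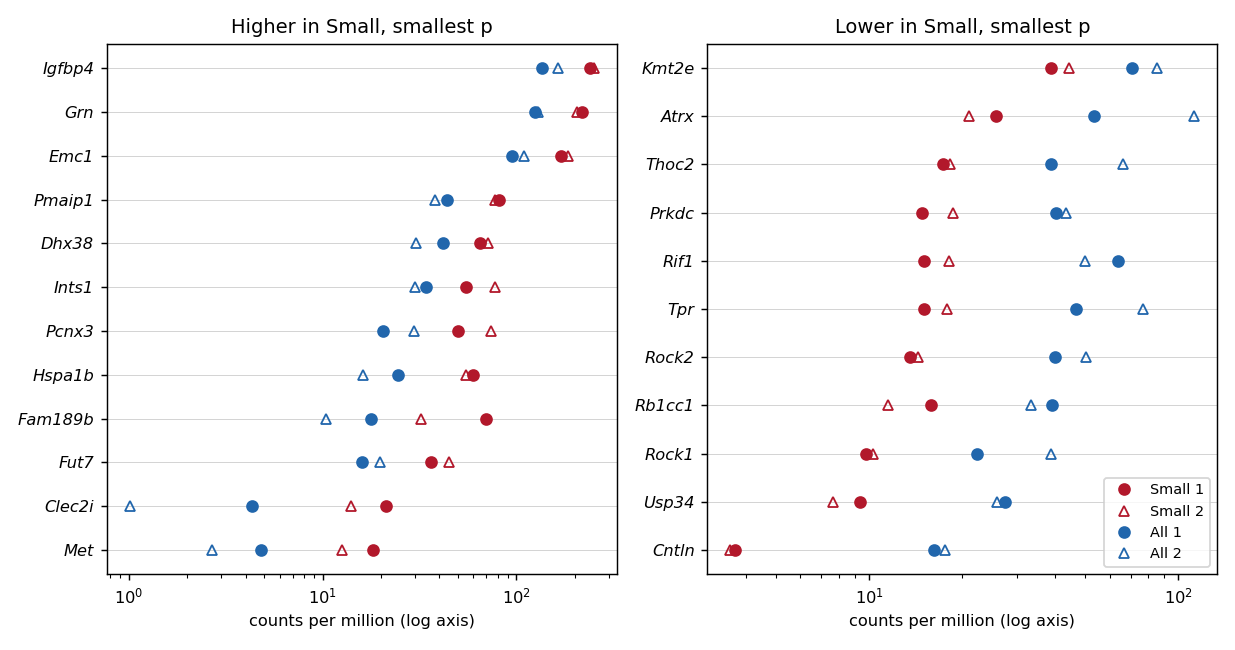
CPM (x axes, log scale) of the 12 genes of smallest p higher in Small (left) and of 11 of the 12 lower in Small (right, without Igkv4-55, which is at 0 in Small). Circles are number 1, open triangles number 2, red is Small and blue is All. In each gene the red and blue points do not overlap, which the choice of the genes required.

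The genes that were lower in Small shared transcript features. The 11 genes other than Igkv4-55 had transcripts of 5528 to 12647 bases (median 7622) with 37.5% to 45.9% G and C (median 41.4%), against medians of 2796 bases and 49.5% for all genes tested. The 12 genes higher in Small had a median of 3457 bases and 56.5% G and C. Over all 16017 genes with a GC value, the difference between Small and All also followed GC content. In the lowest decile by GC, 29.3% of genes were below both All libraries without overlap and 4.18% above. In the highest decile, 8.0% were below and 17.7% above. Spearman's rho between GC content and the difference, across genes and as a description, was 0.310 within number 1 and 0.0887 within number 2. The same rho for Medium or Large against All lay between 0.00384 and 0.0466. With the trends in GC content and length removed, the 11 genes kept log2 differences of -2.09 to -0.82, and the count at an unadjusted p under 0.05 was 491 instead of 637. The part of RNA quality or amplification in this trend was not tested.

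**Figure D3:**
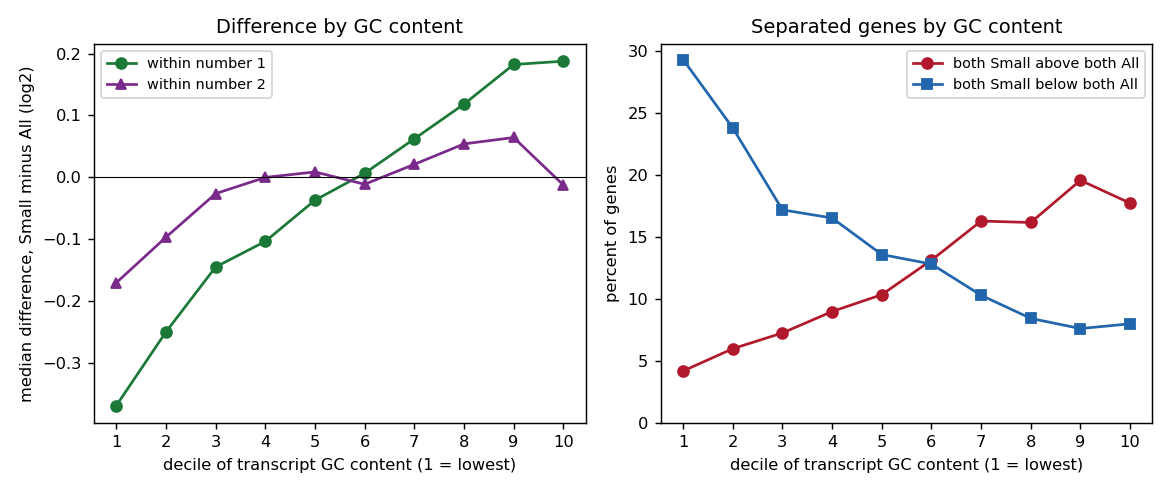
Left, median log2 difference between Small and All (y axis) for deciles of genes by transcript GC content (x axis, 1 is the lowest), within number 1 (green circles) and number 2 (purple triangles). Right, percent of genes in each decile (y axis, from 0) with both Small libraries above (red) or below (blue) both All libraries. The median runs from -0.37 to 0.19 in number 1 from the lowest to the highest decile. In number 2 it runs from -0.17 in the lowest decile to 0.06 in decile 9 and -0.01 in decile 10.

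Among 43 long chromatin and repair genes, 31 had a difference below 0, 11 were below both All libraries without overlap (14.8% of all genes) and 3 above, and the median log2 difference was -0.19, with -0.19 in number 1 and -0.16 in number 2. An unadjusted p under 0.05 was reached by 6 of them, all lower (2.32% of all genes). Rif1, Prkdc and Kmt2e, chosen above for their small p, are among these 6, and the list was drawn up with earlier results of these data known. The count of 6 is therefore no independent support. With All 2 left out 13 of 43 were below All 1 in both Small libraries, against 32.9% of all genes. Leaving out All 2 brought the median to 0.00 and leaving out Small 1 brought it to -0.04. Setd2, the methyltransferase for histone H3 lysine 36, was at 19.1 and 21.5 CPM in Small and at 26.4 and 45.6 CPM in All. Smarca4, the ATPase of the BAF remodelling complex, went the other way, with 201 and 223 CPM in Small and 128 and 176 CPM in All, both Small libraries being above both All libraries. Long genes of chromatin were thus not uniformly lower.

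The 12 genes of smallest p among those higher in Small were Pmaip1, Fut7, Hspa1b, Fam189b, Pcnx3, Emc1, Ints1, Grn, Met, Dhx38, Igfbp4 and Clec2i. None passed the adjusted test in edgeR (adjusted p = 1), with unadjusted p from 0.00367 to 0.00679 and log2 differences from 0.71 to 2.72. All 4 Medium and Large libraries were below both Small libraries for 7 of the 12, which were chosen for high values in Small, against 7.00% of all genes. DESeq2 without a block called 28 of all genes, among them 13 of the 24 named by this rule. With the replicate block it called 374, among them all 24. The 24 had been chosen for small p and no overlap in the same counts, so these calls are no independent support.

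Pmaip1, which encodes the pro-apoptotic protein Noxa, was at 81.1 and 77.7 CPM in Small and at 43.8 and 38.2 CPM in All, a log2 difference of 0.95 (SE 0.22, unadjusted p = 0.00367, edgeR). Both Large libraries, at 97.4 and 105 CPM, were higher still. Fut7, the fucosyltransferase that completes selectin ligands on blood cells (chr2:25423267-25426374, plus strand), was at 36.2 and 44.8 CPM in Small (40.5 ± 6.08, SD, n = 2) and at 16 and 19.7 CPM in All (17.9 ± 2.64, SD, n = 2), a log2 difference of 1.18 (SE 0.28, unadjusted p = 0.00379, edgeR). Its differences within number 1 and number 2 were 1.17 and 1.18. Medium and Large held 26.5 to 34.1 CPM, between the groups. Met, the receptor for hepatocyte growth factor (chr6:17463800-17573980, plus strand), was at 18.2 and 12.6 CPM in Small and at 4.80 and 2.70 CPM in All, and Clec2i, a C-type lectin, was at 21.1 and 14.0 CPM in Small and at 4.31 and 1.01 CPM in All. In these low genes the All 2 library was the lowest. Met was at 16.9 and 9.10 CPM in Medium and at 17.3 and 17.5 CPM in Large. Clec2i was at 7.68 and 11.4 CPM in Medium and at 12.9 and 15.5 CPM in Large. For both genes the Medium and Large libraries were thus also above both All libraries.

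Grn, which encodes the lysosomal and secreted protein progranulin (chr11:102430315-102437048, plus strand), was at 219 and 206 CPM in Small (212 ± 9.36, SD, n = 2) and at 124 and 129 CPM in All (126 ± 3.24, SD, n = 2), a log2 difference of 0.75 (SE 0.18, unadjusted p = 0.00486, edgeR). The libraries of each group were close to each other, and Medium and Large, at 141 to 181 CPM, lay between the groups. Igfbp4, a secreted binding protein of insulin-like growth factors, was at 241 and 251 CPM in Small and at 136 and 163 CPM in All. Emc1, of the complex that inserts membrane proteins into the endoplasmic reticulum, was at 171 and 184 CPM in Small and at 94.7 and 109 CPM in All. Ints1, of the Integrator complex that processes small nuclear RNAs, was at 55.2 and 77.4 CPM in Small and at 34.2 and 29.8 CPM in All, and Dhx38, a splicing helicase, was at 65.1 and 71.2 CPM in Small and at 41.9 and 30.2 CPM in All. For Dhx38 the Large libraries, at 66.4 and 67.5 CPM, were level with Small. Pcnx3 was at 49.7 and 74.1 CPM in Small and at 20.6 and 29.6 CPM in All, and Fam189b at 69.3 and 32.2 CPM in Small and at 17.7 and 10.5 CPM in All.

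Genes of HSC identity (transcription factors, receptors and surface proteins by which HSCs are recognised) were on balance lower in Small than in All. Of 38 measured, 30 had a difference below 0, and 24 were lower within both numbers (31.3% of all genes). Without overlap, 6 were below both All libraries, a share near the 14.8% of all genes, and 1 was above. The median log2 difference was -0.38, with -0.38 within number 1 and -0.28 within number 2. One was lower at an unadjusted p under 0.05, and 10 with the replicate block (5.56% of all genes). The levels differed more between numbers than between gates: the 38 genes summed to 3640.0 and 7562 CPM in Small and to 4185 and 8522 CPM in All. In fits without the block, leaving out 1 library therefore sets unequal numbers against each other. The median was then 0.11 without All 2 and 0.02 without Small 1. Against All 1 alone 7 of 38 were lower in both Small libraries (32.9% of all genes). These values cannot separate the part of a single library from that of the number.

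Mecom, the zinc finger factor that maintains HSCs, was at 25.7 and 91.2 CPM in Small and at 66.0 and 173 CPM in All, with log2 differences of -1.36 within number 1 and -0.93 within number 2. Angpt1, which encodes a ligand of the receptor Tie2, was at 118 and 223 CPM in Small and at 237 and 402 CPM in All. Both were picked after their values were seen. Each was lower in Small within its number, and for Angpt1 both Small libraries were below both All libraries. Ctnnal1, whose product alpha-catulin marks HSCs in reporter mice, was at 17.8 and 13.7 CPM in Small and at 27.4 and 28.3 CPM in All, a log2 difference of -0.82 (SE 0.33, unadjusted p = 0.0428, adjusted p = 1, edgeR). Tcf15, a factor of quiescent HSCs, was at 3.63 and 2.78 CPM in Small and at 4.38 and 15.3 CPM in All, mostly apart through All 2. Lmo2, an abundant member and a bridging factor of the HSC transcription complex, was also lower in Small within each number, at 435 and 914 CPM in Small and at 525 and 1101 CPM in All. The exception with no overlap was Gata2, a zinc finger factor of HSC survival, at 247 and 178 CPM in Small and at 137 and 166 CPM in All. Of 21 genes that mark aged HSCs, 16 had a difference below 0 and 10 were lower within both numbers (31.3% of all genes), with a median log2 difference of -0.29.

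Genes of multipotent progenitors were on balance higher in Small. Of 20 measured, 18 had a difference above 0, and 14 were higher within both numbers (26.7% of all genes). Without overlap, 3 were above both All libraries, a share near the 12.0% of all genes, and 0 were below. The median log2 difference was 0.89, with 0.31 within number 1 and 0.97 within number 2. The test found 0 of them at an unadjusted p under 0.05, and 5 with the replicate block, all higher (5.96% of all genes). Leaving out Small 2 lowered the median to 0.23.

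Dntt, the terminal transferase of early lymphoid progenitors, was at 43.0 and 231 CPM in Small and at 11.8 and 13.9 CPM in All, a log2 difference of 3.41 (SE 1.81, unadjusted p = 0.102, edgeR). Both Small libraries were above both All libraries, and Small 2 was the higher. Its level was 20.3 and 256 CPM in Medium and 8.35 and 383 CPM in Large, so that among number 2 libraries only All 2 was low. Flt3, the cytokine receptor gained as HSCs become multipotent progenitors, was at 62.7 and 762 CPM in Small and at 40.8 and 387 CPM in All, and Satb1, a chromatin organiser of lymphoid progenitors, at 24.3 and 84.7 CPM in Small and at 14.7 and 22.9 CPM in All, both picked after their values were seen. Flt3 differed by 0.62 and 0.98 on the log2 scale within numbers 1 and 2. The most abundant members were Cd34, at 325 and 1274 CPM in Small and at 349 and 910.2 CPM in All, and Plac8, at 774 and 289.9 CPM in Small and at 458 and 101 CPM in All. Plac8 was higher in Small within both numbers and Cd34 within number 2 alone.

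**Figure D4:**
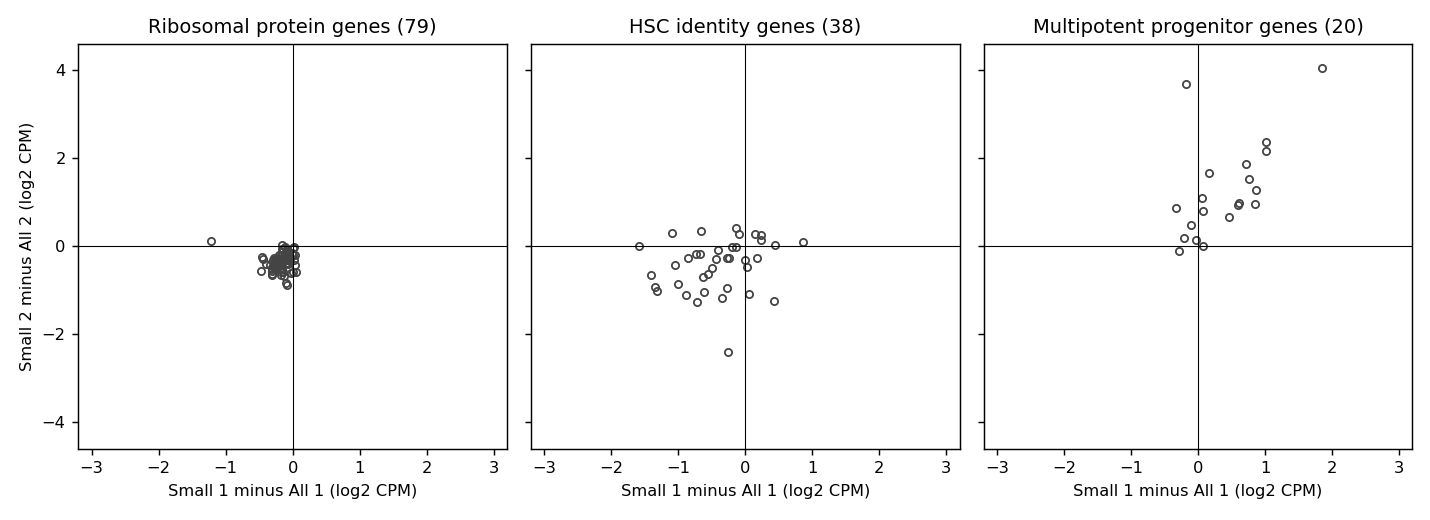
Log2 CPM difference Small 1 minus All 1 (x axes) and Small 2 minus All 2 (y axes) for 3 gene lists, 1 circle a gene. Of 79 ribosomal protein genes 70 lie in the lower left field, of 38 HSC identity genes 24 lie there, and of 20 multipotent progenitor genes 14 lie in the upper right.

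Of 16 lineage transcription factors, 13 had a difference above 0, 5 were above both All libraries without overlap (12.0% of all genes) and 1 below, and the median log2 difference was 0.39, with 0.28 in number 1 and 0.55 in number 2. Irf8, which directs monocyte and dendritic fate (chr8:120736358-120756694, plus strand), was at 146 and 56.7 CPM in Small and at 35.3 and 12.9 CPM in All. The groups did not overlap, the log2 difference was 2.07 (SE 0.58, unadjusted p = 0.00913, adjusted p = 1, edgeR), and the differences within numbers were 2.04 and 2.13. With the replicate block in a fit of the 4 libraries alone, Irf8 was 1 of 3 genes past the adjusted test (adjusted p = 0.0296), beside Igkv4-55 and Igkv3-4 (adjusted p = 0.0178 each). Irf8 was also above both All libraries in Medium, at 54.2 and 55.4 CPM, and in Large, at 108 and 118 CPM. Gfi1, a repressor that guides granulocyte fate and restrains HSC division, was at 49.7 and 46.1 CPM in Small. It was at 33.2 and 16.7 CPM in All and at 28.9 and 37.1 CPM in Medium. Both Large libraries, at 63.4 and 58.9 CPM, were above Small for Gfi1. Spi1, which encodes the myeloid factor PU.1, was at 156 and 123 CPM in Small and at 119.7 and 90.6 CPM in All.

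Transcripts of differentiated cells were present in all 4 libraries and at very unequal levels. A list of 7 genes measured, Mpo, Elane, Prtn3, Ctsg, Ms4a3, Prss57 and the ER chaperone gene Calr, which granulocyte and monocyte progenitors express with their primary granules, summed to 21499 and 6194 CPM in Small and to 9983 and 1089 CPM in All. All 7 were higher in Small within both numbers (26.7% of all genes), with median log2 differences of 0.66 and 3.66 within numbers 1 and 2. Against All 1 alone, however, 1 of 7 was higher in both Small libraries (26.9% of all genes), namely Calr. It is no granule protein and also stands in the stress response list below. Against All 2 alone 7 of 7 were higher (32.9% of all genes). Mpo, the peroxidase of these granules, was at 13601 and 3458 CPM in Small and at 5269 and 132 CPM in All, and Elane, neutrophil elastase, was at 3929 and 1079 CPM in Small and at 2120.4 and 60.6 CPM in All. All 2 was the lowest library for both. Neither differed by the test (unadjusted p = 0.281 for Mpo and 0.411 for Elane, edgeR).

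Markers of later granulocytes and monocytes did not follow. The 24 genes summed to 36134 and 11465 CPM in Small and to 65739 and 5421 CPM in All, and the list's median stood at -0.50 within number 1 and 0.99 within number 2. S100a8, an antimicrobial protein of neutrophils, was at 5834 and 1549 CPM in Small and at 10787 and 802 CPM in All, and Ngp, a secondary granule protein, at 8297 and 2559 CPM in Small and at 16988 and 989 CPM in All. All 1 was the highest and All 2 the lowest library for each, so that the 2 Small libraries lay between them. Of the 24 fitted differences 15 were below 0 and 9 above. Csf1r, the receptor of macrophage colony stimulating factor and the member of smallest p, was among the 9, at 121 and 55.6 CPM in Small and at 43.4 and 18.6 CPM in All. Mast cell, basophil and eosinophil markers summed to 2242 and 385 CPM in Small and to 796 and 51.0 CPM in All, with 16 of 17 genes above 0 in the fitted difference. Of these, Prg2, the eosinophil major basic protein, was at 605 and 176 CPM in Small and at 223 and 7.98 CPM in All, while the basophil protease Prss34 was at 551 and 0.285 CPM in Small and at 87.0 and 13.4 CPM in All. The mast cell proteases Cma1, Mcpt4, Tpsab1 and Tpsb2 had 0 counts in all 4 libraries. B cell markers summed to 2887 and 818 CPM in Small and to 1423 and 769 CPM in All, and T and NK cell markers to 683 and 285 CPM in Small and to 431 and 122 CPM in All. Macrophage and dendritic markers summed to 911 and 1174 CPM in Small and to 594 and 1242 CPM in All, erythroid markers to 4784 and 2139 CPM in Small and to 4263 and 2645 CPM in All, and endothelial and stromal markers to 367 and 287 CPM in Small and to 233 and 159 CPM in All. Only the endothelial and stromal sum was higher in both Small libraries than in both All libraries. The part of such transcripts in the differences of HSC identity, progenitor and lineage genes above was not tested.

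Genes of the unfolded protein response and of the integrated stress response, by which cells adjust folding capacity in the endoplasmic reticulum and amino acid supply, were on balance higher in Small. Of 31 measured, 20 had a difference above 0, 7 were above both All libraries without overlap (12.0% of all genes) and 2 below (14.8%), and 16 were higher within both numbers (26.7% of all genes). The median log2 difference was 0.28, with 0.38 within number 1 and 0.19 within number 2. An unadjusted p under 0.05 was reached by 3 that were higher (1.65% of all genes) and 0 that were lower, and with the replicate block by 9 that were higher (5.96%). Leaving out Small 1 lowered the median to 0.04. The 7 without overlap were Sesn2, Sel1l, Calr, Herpud1, Xbp1, Hspa5 and Shmt2, and the 2 below were Chac1 and Slc7a11. The 31 genes summed to 8350 and 6670 CPM in Small and to 6247 and 5807 CPM in All. Medium held 6693 and 6528 CPM and Large 10102 and 7621 CPM, so that Large was above Small within each number. The All mean was below every gate for 13 of the 31 (21.9% of all genes). The higher level against All was thus not particular to Small.

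A sequence that marks part of this group is the ER stress response element, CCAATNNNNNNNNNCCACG, which the factors NF-Y and ATF6 are known to bind. On both strands it was found in 0.119% of 32851 RefSeq promoters of 300 bases (GRCm38.p6, from 250 bases before to 50 after the start) and in those of 5 of the 30 genes of the list that matched a promoter. They are printed on the gene's strand, 5′ to 3′, with 30 bases on each side of the element, which is in capitals and reads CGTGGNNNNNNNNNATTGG where it lies on the opposite strand; they are shown because these 5 genes did not move alike.
Hspa5, chr2:34771995-34772073, plus strand: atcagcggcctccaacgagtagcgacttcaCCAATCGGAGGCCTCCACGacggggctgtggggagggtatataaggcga
Pdia6, chr12:17266461-17266539, plus strand: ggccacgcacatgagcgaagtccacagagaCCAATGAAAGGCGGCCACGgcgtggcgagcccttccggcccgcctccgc
Hsp90b1, first of 2 elements, chr10:86705608-86705686, minus strand: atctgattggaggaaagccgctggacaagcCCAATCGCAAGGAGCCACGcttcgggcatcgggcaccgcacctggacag
Hsp90b1, second element, chr10:86705503-86705581, minus strand: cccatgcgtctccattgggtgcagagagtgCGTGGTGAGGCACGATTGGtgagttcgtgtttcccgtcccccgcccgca
Calr, chr8:84847045-84847123, minus strand: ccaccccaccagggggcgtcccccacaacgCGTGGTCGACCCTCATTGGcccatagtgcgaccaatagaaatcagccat
Creld2, chr15:88819490-88819568, plus strand: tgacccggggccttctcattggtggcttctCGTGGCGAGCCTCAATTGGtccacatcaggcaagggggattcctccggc

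Of these 5, Hspa5, the main chaperone of the endoplasmic reticulum (BiP), was at 2047 and 1730.0 CPM in Small and at 1524 and 1402 CPM in All, a log2 difference of 0.37 (SE 0.20, unadjusted p = 0.114, edgeR). Calr, the lectin chaperone calreticulin, was at 1259.9 and 769 CPM in Small and at 759 and 743 CPM in All. In both genes the Small libraries were above the All libraries, for Calr chiefly through Small 1. Creld2, a secreted ER stress protein, was at 139.7 and 67.9 CPM in Small and at 93.8 and 58.2 CPM in All, and Pdia6, a disulfide isomerase, was at 758 and 449 CPM in Small and at 561 and 475 CPM in All. Hsp90b1, the ER form of HSP90, whose promoter holds 2 elements, was at 497 and 286 CPM in Small and at 497 and 308 CPM in All. The last 3 overlapped between groups, and Hsp90b1 was level within number 1. A match in these letters is a description of the promoter and not of the factor's binding.

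Outside these 5, Herpud1, an adaptor of ER-associated degradation, was at 332 and 326 CPM in Small and at 193 and 239.6 CPM in All, a log2 difference of 0.61 (SE 0.20, unadjusted p = 0.0211, adjusted p = 1, edgeR). Xbp1, the transcription factor spliced by the sensor IRE1, was at 451 and 403 CPM in Small and at 340.1 and 256 CPM in All (unadjusted p = 0.0381, picked after its values were seen). Shmt2, the mitochondrial serine hydroxymethyltransferase that ATF4 controls, was at 166 and 128 CPM in Small and at 109 and 90.8 CPM in All (unadjusted p = 0.0308). In each of the 3 the groups did not overlap. For Shmt2 the Large libraries, at 179 and 174 CPM, were above Small.

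Immediate early genes, which are switched on within minutes by growth factors and by cell handling, were also higher on balance. Of 28 measured, 19 had a difference above 0, 5 were above both All libraries without overlap (12.0% of all genes) and 1, Sgk1, below, and 17 were higher within both numbers (26.7% of all genes). The median log2 difference was 0.26, with 0.40 within number 1 and 0.13 within number 2. Leaving out Small 1 or All 1 brought it to 0.02 and leaving out All 2 to 0.61. Jun, a subunit of the factor AP-1 (chr4:95049034-95052222, minus strand), was at 1459.7 and 1038 CPM in Small and at 769 and 710.2 CPM in All, a log2 difference of 0.76 (SE 0.22, unadjusted p = 0.0106, adjusted p = 1, edgeR). Medium and Large, at 724 to 903 CPM, were below both Small libraries. Tnfaip3, which encodes the NF-kB inhibitor A20, was at 443 and 266 CPM in Small and at 230.4 and 145 CPM in All, with log2 differences of 0.94 and 0.88 within the numbers. Nfkbia, which encodes the inhibitor IkB alpha and was picked after its values were seen, was at 664 and 429 CPM in Small and at 379 and 337 CPM in All. For both NF-kB inhibitors the groups did not overlap. Btg2, an antiproliferative gene, was at 1060.2 and 1107 CPM in Small and at 669 and 954 CPM in All. Nr4a1, an orphan nuclear receptor, differed by number, at 1011 and 4095 CPM in Small and at 986 and 3538 CPM in All, and Fosb, another AP-1 subunit, was lower in Small within both numbers, at 50.5 and 130.3 CPM against 52.7 and 249 CPM in All. The part of time on the sorter in these levels was not tested.

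The inducible chaperones Hspa1a and Hspa1b, near-identical copies of HSP70 whose reads cannot be told apart with certainty, were both higher in Small. Hspa1b was at 59.8 and 55.0 CPM in Small and at 24.4 and 16.2 CPM in All, a log2 difference of 1.5 (SE 0.36, unadjusted p = 0.00425, edgeR), and Hspa1a was at 28.0 and 23.8 CPM in Small and at 12.5 and 5.17 CPM in All. The Large libraries held 59.0 and 78.4 CPM of Hspa1b, in the range of Small or above. The 25 chaperones as a group had a median log2 difference of 0.02, with 4 above and 1 below without overlap (12.0% and 14.8% of all genes).

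Of 31 genes of the actin cytoskeleton, 7 were above both All libraries (12.0% of all genes) and 2 below, with a median log2 difference of 0.10. For 8 of the 31, both Small libraries were above all 4 Medium and Large libraries, against 7.00% of all genes. Mrtfa, the actin-sensing coactivator of SRF, was at 68.3 and 65.2 CPM in Small and at 40.5 and 45.5 CPM in All, and 30.3 to 34.5 CPM in Medium and Large. Tln1, which encodes talin, the link from integrins to actin, was at 508 and 675 CPM in Small and at 351 and 418 CPM in All, and at 283 to 406 CPM in Medium and Large. Small was the highest of the 4 gates for both, whereas the kinases Rock1 and Rock2 above were lowest there. Among 20 homing and adhesion genes 3 were above and 2 below (12.0% and 14.8% of all genes). Itgal, the alpha subunit of the integrin LFA-1, was at 101 and 100.1 CPM in Small and at 67.2 and 33.5 CPM in All, and Itgb7, a beta subunit that pairs with the alpha 4 subunit, was at 87.2 and 108 CPM in Small and at 30.3 and 47.5 CPM in All. Both were above All in each Small library.

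The mTOR pathway, which couples nutrients to cell growth, had 5 of 35 genes above and 3 below without overlap, shares near or under the 12.0% and 14.8% of all genes, and a median log2 difference of 0.08. Rptor, the scaffold of mTOR complex 1, was at 37.9 and 28.5 CPM in Small and at 21.5 and 15.6 CPM in All, and Tsc2, an inhibitor of that complex, at 91.5 and 116 CPM in Small and at 63.2 and 79.3 CPM in All. These were its 2 genes of smallest p, with unadjusted p of 0.0258 and 0.0483 by edgeR, and both adjusted p were 1.

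Cell cycle and energy genes had medians near 0. The 36 genes of the G1/S transition and replication had a median log2 difference of 0.04, with 1 above and 1 below (12.0% and 14.8% of all genes). Mcm6, of the replicative helicase, was at 942 and 642 CPM in Small and at 841 and 599 CPM in All. The 30 genes of G2 and mitosis had a median of -0.03 that joined opposite differences, -0.22 within number 1 and 0.98 within number 2. Both Small libraries were below All 1 for 21 of the 30 (32.9% of all genes) and above All 2 for 23 (32.9% of all genes). Top2a, the topoisomerase that untangles chromosomes, was at 211 and 100.1 CPM in Small and at 369.8 and 102 CPM in All, and Cenpf, a large kinetochore protein, at 7.25 and 1.64 CPM in Small and at 18.4 and 11 CPM in All. Of the 2, Cenpf alone was below both All libraries. The 76 nuclear genes of oxidative phosphorylation had a median of -0.07, with 3 above and 4 below (12.0% and 14.8% of all genes). The 13 mitochondrially encoded genes summed to 6403 and 10329 CPM in Small and to 8272 and 9855 CPM in All, with a median of -0.12 that became 0.38 when the trends in GC content and length were removed. In that list mt-Nd6, the subunit encoded on the other mitochondrial strand, was at 8.29 and 21.1 CPM in Small and at 28.9 and 43.2 CPM in All. The 35 proteasome genes had a median of -0.01, the 40 interferon response genes one of -0.12 and the 25 p53 target genes, which include Pmaip1, one of 0.06.

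**Figure D5:**
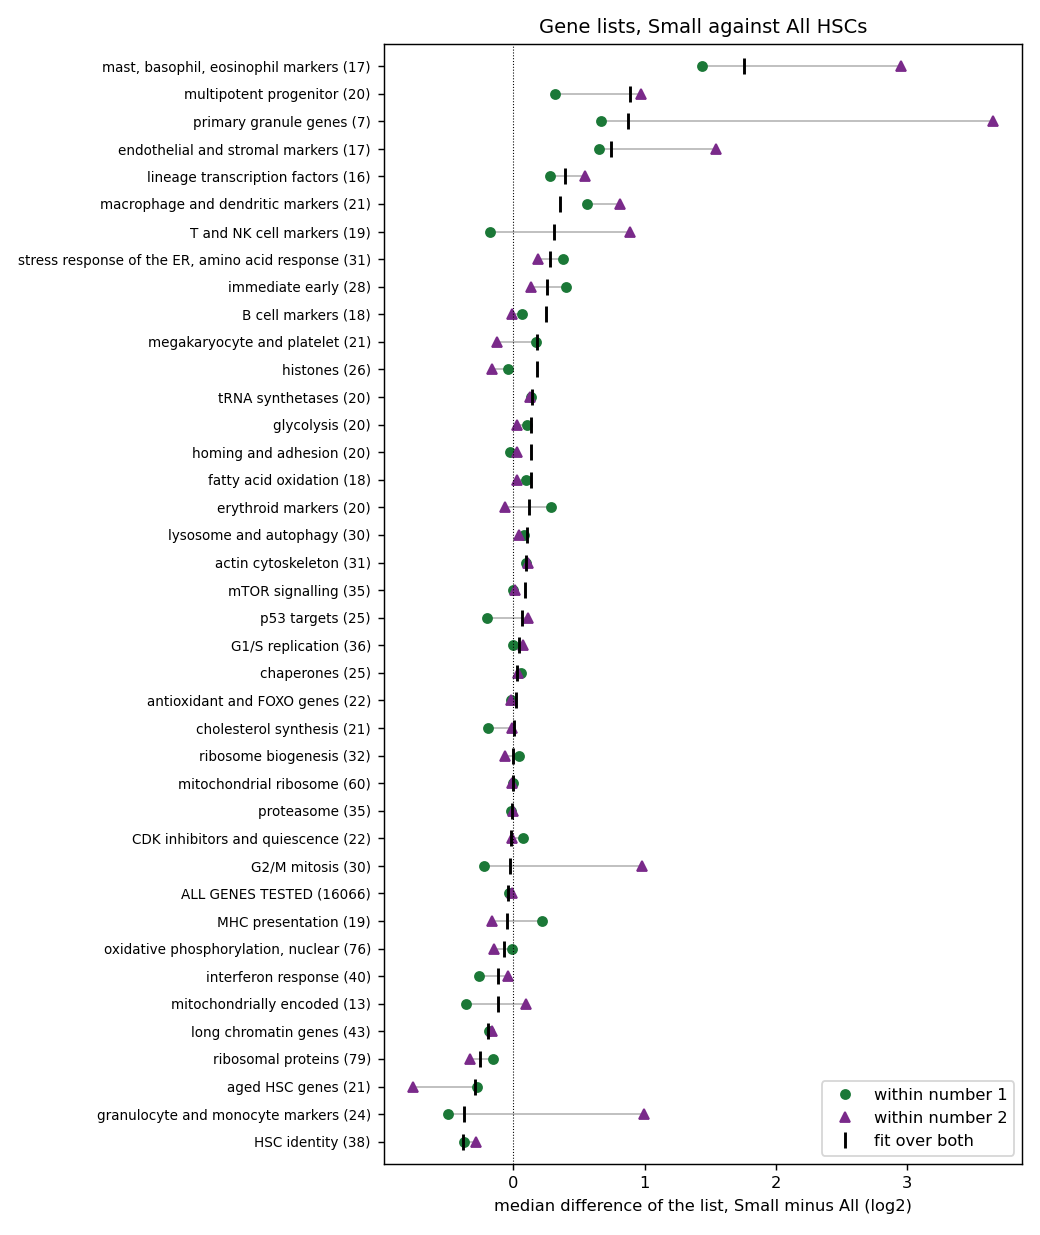
Median log2 difference between Small and All (x axis) for 39 gene lists and for all 16066 genes tested (y axis, number of genes in brackets), within number 1 (green circles), within number 2 (purple triangles) and in the fit over all libraries (black bars). Ribosomal protein and HSC identity genes lie below 0 in both numbers and multipotent progenitor genes above, while late granulocyte and monocyte markers lie on opposite sides in the 2 numbers.

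All HSCs contain the size gates, and the All mean lay inside the range of the Small, Medium and Large means for 50.6% of genes, above every gate for 27.4% and below every gate for 21.9%. For HSC identity genes it was above every gate in 25 of 38 and below in 1. For multipotent progenitor genes it was below every gate in 12 of 20, and for the primary granule list in 7 of 7. For most genes of each of these 3 lists All thus lay outside the range of the gates, whereas for 77 of 79 ribosomal protein genes it lay inside. A place inside that range does not show an order by size. The summed level of ribosomal protein genes was higher in Medium than in Large within each number.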

How the data were processed

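RNA was measured in 8 libraries of 10000 mouse HSCs each. The authors deposited estimated counts per Ensembl gene, rounded to whole numbers, and log2(TPM + 1) values. STAR 2.5.3a, RSEM 1.3.0, SAMtools 1.3 and the mm10 build are named in the submitters' processing notes; annotation release and use of strand are not given in the sources used here. Symbols came from GENCODE M21 (GRCm38) for 50462 of 50686 identifiers, the rest holding at most 0.0359% of counts.

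Counts were filtered with filterByExpr (minimum count 10), scaled by TMM and fitted over all 8 libraries with edgeR 4.0.16 (R 4.3.3; glmQLFit and glmQLFTest, Benjamini-Hochberg, threshold 0.05, 4 residual degrees of freedom), a script also tested on simulated data. DESeq2 1.42.0 and limma 3.58.1 were alternatives. Genes were named by rule: the 12 of smallest p in each direction with at least 5 CPM and no overlap, the 3 most abundant and 2 of smallest p in each list, and the sort antigens; others were added after seeing their values. Members and lists were chosen with earlier results of these data known. Same-numbered libraries deviated together (r from 0.358 to 0.439 in all 6 pairs of groups), but the labels do not say what the number marks. Totals limit each value's precision; a count of 0 allows up to 3 counts, for counting error only.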

Additional observations from a re-analysis of the deposited data

How the results depend on the processing

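With the replicate block, edgeR called 0 genes and 1850 reached an unadjusted p under 0.05 instead of 637. In the 4 libraries alone the block gave 3 calls (1 higher, 2 lower) and 1639 genes at that p, without the block 278. DESeq2 called 28 (7 higher, 21 lower), and with the block 374 (249 higher, 125 lower) with 2147 at an unadjusted p under 0.05; limma-voom with the block called 0 with 2011. Without the filter on low counts edgeR called 69 (41 higher, 28 lower; 1210 at an unadjusted p under 0.05), and with the stricter filter 0 (416). Removing the GC and length trends, chosen after seeing the data, gave 0 calls and, with the block, 1515 genes at that p. Leaving out 1 library gave 0 calls in each case and from 331 (without All 2) to 1455 (without All 1) at that p. The cause of these shifts was not tested.

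Leaving out 1 library at a time, list medians ran from -1.10 to 0.11 for HSC identity, from 0.23 to 0.82 for multipotent progenitors, from -0.36 to -0.12 for ribosomal proteins, from 0.035 to 0.35 for the stress response, from 0.017 to 0.61 for immediate early genes, from -0.47 to -0.0042 for long chromatin genes and from -0.015 to 4.83 for primary granule genes. The fits without 1 library had no replicate block, so the numbers were then unbalanced between Small and All. Long chromatin genes stood at -0.16 with RLE scaling, -0.13 on log2(TPM + 1) and -0.16 without the GC and length trends. For single genes, direction changed on log2(TPM + 1) for Ngp (0.21), S100a8 (0.075) and Prss34 (-0.53), and without the GC and length trends for Hsp90b1 (0.13). Leaving out 1 library turned the direction of these named genes, whose log2 differences ran from -0.95 to 1.20 for Cd34, -0.015 to 5.37 for Elane, -0.21 to 0.55 for Pdia6, -1.25 to 0.61 for Top2a, -1.16 to 1.37 for Nr4a1, -0.17 to 0.40 for Mcm6, -1.81 to 2.46 for Ngp, -0.90 to 0.36 for Lmo2, -1.90 to 2.20 for S100a8, -7.42 to 4.36 for Prss34, -0.21 to 0.063 for Rpl3, -0.22 to 0.045 for Rplp0, -2.00 to 1.53 for Ly6a, -1.58 to 0.78 for Fosb, -0.49 to 0.35 for Hsp90b1, -1.77 to 3.34 for Flt3 and -0.16 to 0.88 for Creld2. Such a turn need not mean that the numbers disagreed. Lmo2 and Flt3, among others, kept the same direction within both numbers, whereas Cd34, among others, did not.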
